A study of Homo sapiens with 6 samples.

Results

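The cytosolic ribosomal protein genes were examined in SU-CCS-1, a human cell line grown from a clear cell sarcoma whose driver is the fusion of EWSR1 and ATF1, abbreviated EA1. The genes were chosen by symbol alone: protein-coding rows of the deposited count table named RPL or RPS with a number, together with RPLP0, RPLP1, RPLP2 and RPSA, and without the RPS6K kinases. This gave 82 genes of 18118 rows, 50 of the large 60S subunit and 32 of the small 40S subunit, and 5 of them are paralogs of another member (RPL7L1, RPL22L1, RPL26L1, RPL39L and RPS27L). All 82 passed the filter on low counts. RPL3L and RPL10L also encode cytosolic ribosomal proteins and had no row, and FAU and RPL36AL were among the ribosomal protein genes outside the rule.

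Polyadenylated RNA was sequenced from 6 libraries in 3 groups of 2, all from the same cell line. Control cells received a scrambled siRNA (siNeg1), and EA1 was knocked down with the siRNA labelled EA1-1 (EA1 siRNA 1) or the siRNA labelled EA1-2 (EA1 siRNA 2). The labels do not say whether replicates were separate cultures, so every p-value measures the spread between these libraries, which may be technical. The design asks how levels differ between knockdown and control for each siRNA, and between the siRNAs. In bulk RNA fewer cells of a type and less RNA per cell cannot be told apart, and the libraries hold neither ribosomal RNA nor a measure of translation.

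The ribosome is assembled in the nucleolus from ribosomal RNA and about equal numbers of each ribosomal protein, with the help of a large set of assembly factors that leave before translation starts. Most ribosomal protein mRNAs begin with a C followed by an unbroken run of pyrimidines, the 5′ terminal oligopyrimidine (TOP) tract, through which mTORC1 and the RNA-binding protein LARP1 control their translation. Ribosomal proteins not built into ribosomes are mostly degraded. EWSR1::ATF1 keeps the DNA-binding domain of ATF1, which recognizes the sequence TGACGTCA and its shorter parts TGACG and CGTCA.

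RefSeq promoter entries (GRCh38.p14, 250 bases before to 50 after the annotated start) were matched by symbol for 66 of the 82 genes. Starts of 7 members described below are shown as 30 bases, 10 before and 20 from the annotated first base, because they carry the feature that most of these genes share. The capitals mark a run of C and T beginning with C within 10 bases of the start.
RPL4 (chr15:66504836-66504865, minus strand): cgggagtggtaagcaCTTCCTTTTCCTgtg
RPL14 (chr3:40457329-40457358, plus strand): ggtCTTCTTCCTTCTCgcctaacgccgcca
RPL36A (chrX:101391001-101391030, plus strand): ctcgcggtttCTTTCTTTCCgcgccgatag
RPLP0 (chr12:120201092-120201121, minus strand): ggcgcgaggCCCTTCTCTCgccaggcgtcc
RPS16 (chr19:39435930-39435959, minus strand): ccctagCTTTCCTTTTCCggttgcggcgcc
RPS28 (chr19:8321486-8321515, plus strand): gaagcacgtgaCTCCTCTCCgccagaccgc
RPL34 (chr4:108620566-108620595, plus strand): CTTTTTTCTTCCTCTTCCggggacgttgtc

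A run of at least 5 pyrimidines of this kind was found in 55 of the 66 member promoters (83.3%), and in 31.3% of all 27305 promoters in the table. A run of at least 8 was found in 68.2% of the members and in 8.22% of all promoters, and the annotated first base was C in 71.2% and 15%. The members that rose (RPS28, RPL34) carried such runs as did members that fell (RPL4, RPL14). The median log2 fold change (log2FC, knockdown minus control, averaged over both siRNAs, so that negative values are lower after knockdown) was -0.13 over the 55 members with a run of at least 5 and -0.17 over the 11 without, and among these 12 of 55 and 4 of 11 were called lower, beside 22.1% of all genes tested.

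The full ATF/CREB sequence TGACGTCA, searched on both strands, was present in 3 of the 66 member promoters (4.55%) and in 1.98% of all promoters. It is shown in capitals for these 3 genes.
RPL3 (chr22:39319767-39319796, minus strand): gtctccgaagcTGACGTCAacttctgaacg
RPL18 (chr19:48619217-48619246, minus strand): tcgcacccatgTGACGTCAcggcggcgcca
RPLP2 (chr11:809863-809892, plus strand): tgagcgcctcgTGACGTCActctgaggcgc
It began 162 bases before the annotated start in RPL3, 57 in RPL18 and 93 in RPLP2, and RPL3 alone of these genes was called after knockdown. A short site (TGACG or CGTCA, which includes the full sites) was present in 42.4% of the member promoters and 25% of all promoters. Within 50 bases on either side of the start these shares were 12.1% and 10.6%, and the full site was in 0 of 66 member promoters and 0.831% of all. The AP1 sequence TGAGTCA was present in 1.52% and 4.92% of the longer windows. The median log2FC of members with a short site was -0.10 (28 genes) and without one -0.15 (38 genes). These matches describe the letters in the window and are not measurements of binding.

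Total counts per library ranged from 5942808 to 7599305, so that 3 counts, taken as the floor of detection, corresponded to 0.395 to 0.505 CPM (counts scaled to the library total). This floor covers counting error only. ATF1, a part of the fusion that the siRNAs were used against, was at 82.2 and 87.4 normalized CPM in control and at 20.3 to 22.3 in the 4 knockdown libraries. This count also holds the unrearranged ATF1 transcript, so the fall does not measure loss of the fusion alone. EWSR1, whose unrearranged copy is also counted, was at 198 and 233 CPM in control and at 195 to 221 after knockdown. Of the markers listed for clear cell sarcoma and melanocytic cells, 8 of 8 were in the table and 7 rose. The summed level of the 8 was 2750 to 3010 CPM in control and 7393 to 11989 CPM after knockdown. Of 6 fibroblast markers 2 were in the table, COL1A1 and LUM, with summed levels of 2.70 to 3.44 CPM in control and 8.89 to 23.0 CPM after knockdown, whereas COL1A2, COL3A1, DCN and PDGFRA had no row; their part in the results was not tested.

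Levels of most ribosomal protein mRNAs moved little after EA1 knockdown. Summed over the 82 genes, the level was 19607 and 18623 normalized CPM in control, 16630 and 18566 under EA1 siRNA 1, and 18144 and 16647 under EA1 siRNA 2. Both control sums lay above all 4 knockdown sums, but the second control library and the second library of EA1 siRNA 1 differed by less than the control libraries differed from each other. As shares of all counted reads these genes took 1.96% and 1.91% in control, 1.69% and 1.86% under EA1 siRNA 1, and 1.72% and 1.67% under EA1 siRNA 2.

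The summed levels of both subunits were lower in most knockdown libraries. The 60S genes summed to 11412 and 10771 CPM in control and to 9553 to 10638 CPM after knockdown, with no overlap between the groups. The 40S genes summed to 8195 and 7852 CPM in control and to 7069 to 7928 CPM after knockdown, and here the groups overlapped. The ratio of the sums was 1.39 and 1.37 in control and 1.34 to 1.35 in the knockdown libraries.

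Genes were called at an adjusted p under 0.05 (edgeR's quasi-likelihood test, adjusted over 14571 genes by the method of Benjamini and Hochberg). Averaged over both siRNAs, 20 of 82 members (24.4%) were called lower and 2 (2.44%) higher, whereas 22.1% of all genes tested were called lower and 21.5% higher. Under EA1 siRNA 1, 14 members were lower and 2 higher (17.1% and 2.44%), beside 20.3% and 19.9% of all genes. Under EA1 siRNA 2, 9 were lower and 1 higher (11% and 1.22%), beside 18.2% and 18.5%. The count under EA1 siRNA 2 changed with the scaling, the GC and length correction and a replicate block, as given in the last section. In the average the share of members called lower was near that of all genes, and the share called higher was smaller than that of all genes in each comparison. Both comparisons share the control libraries.

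The changes were small in size. The median log2FC of the members was -0.11 under EA1 siRNA 1, -0.14 under EA1 siRNA 2 and -0.14 averaged, and the medians over all genes were 0.02, 0.00 and 0.01. Averaged over both siRNAs, 62 of the 82 values were negative, and 3 members (3.66%) had an absolute log2FC above 0.5, as did 42.9% of all genes. The 60 members that were not called lay between -0.29 and 0.22. By subunit, 13 of 50 genes of the 60S and 7 of 32 of the 40S were called lower (26% and 21.9%, beside 22.1% of all genes), with medians of -0.15 and -0.08.

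Since these genes are highly expressed and precisely measured, they were also set beside the 3575 other genes between the 10th and 90th percentile of the members' level (61.5 to 427 CPM). In the averaged comparison 27.6% of these other genes were called lower and 31.5% higher. Of the 64 members in this range 20.3% were called lower and 3.12% higher, so that most of the gap lay in the higher calls. The median absolute log2FC was 0.33 for the other genes and 0.13 for these members, and the median biological coefficient of variation was 0.0789 and 0.0869. This comparison is a description with no test.

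**Figure D1:**
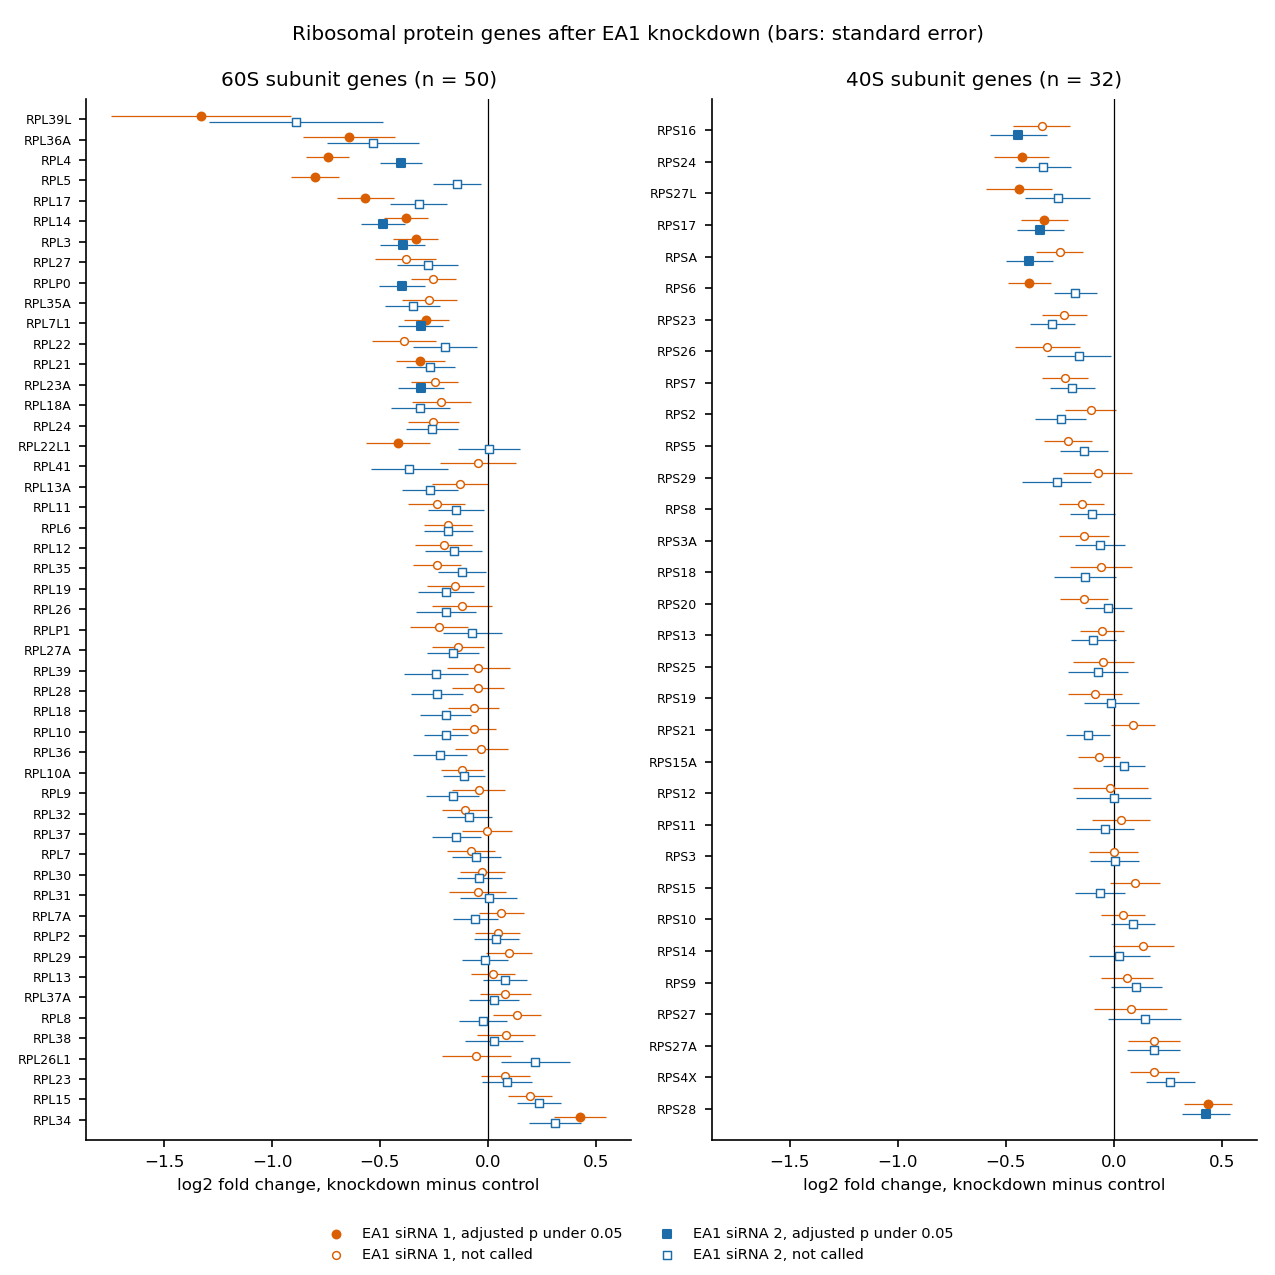
Log2 fold change (horizontal axis, knockdown minus control) of each of the 82 ribosomal protein genes, with 60S genes on the left and 40S genes on the right, for EA1 siRNA 1 (orange circles) and EA1 siRNA 2 (blue squares); bars are standard errors and filled symbols have an adjusted p under 0.05. Most points sit a little left of 0. Within each subunit the genes are ordered by their averaged log2 fold change, which is not drawn. RPL39L, RPL36A, RPL4 and RPL5 are at the low end of that order and RPS28 and RPL34 at the high end. The averaged value ran from -0.29 to 0.22 among the 60 genes not called in the average.

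How many members were called depended on single libraries, most of all on the first control library. Without it, 3 members instead of 22 were called in the averaged comparison, 3 instead of 16 under EA1 siRNA 1 and 1 instead of 10 under EA1 siRNA 2, and the averaged median was -0.06. Of all genes tested 30.5%, 28.7% and 25.3% were called in these fits, against 43.5%, 40.1% and 36.7% with all libraries. Without the second control library the averaged comparison called 18 members, with a median of -0.22, and 29.9% of all genes. The first library of EA1 siRNA 1 also weighed on the counts: without it 4 members were called under EA1 siRNA 1 and 13 on average, and without the second library 9 and 22. Of all genes 26.4% and 36.3% were called without the first, and 26.5% and 35.6% without the second. Leaving out the first library of EA1 siRNA 2 raised the counts to 28 under EA1 siRNA 1, 19 under EA1 siRNA 2 and 32 on average, while 41.4%, 27.7% and 40.6% of all genes were called. Leaving out its second library gave 28, 14 and 26 members and 41.9%, 34.6% and 44% of all genes.

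This dependence was visible between pairs of libraries. The second control library itself lay below the first, with a median log2 difference over the members of -0.12 and 58 of 82 genes lower. Against the first control library, the 4 knockdown libraries had medians of -0.27 and -0.09 (EA1 siRNA 1) and -0.11 and -0.26 (EA1 siRNA 2). Against the second control library, the medians were -0.13 and -0.02 for EA1 siRNA 1 and 0.04 and -0.15 for EA1 siRNA 2. In 1 of the 8 pairs, the first library of EA1 siRNA 2 against the second control, most members (48 of 82) were higher after knockdown. The median over all genes stayed between 0.00 and 0.03 in every pair. Between libraries with the same replicate number all 4 medians were negative (-0.27, -0.02, -0.11 and -0.15). The control libraries thus differed by -0.12 at the median, and 4 of the 8 knockdown medians lay further from 0 than this, as did the averaged median of -0.14.

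**Figure D2:**
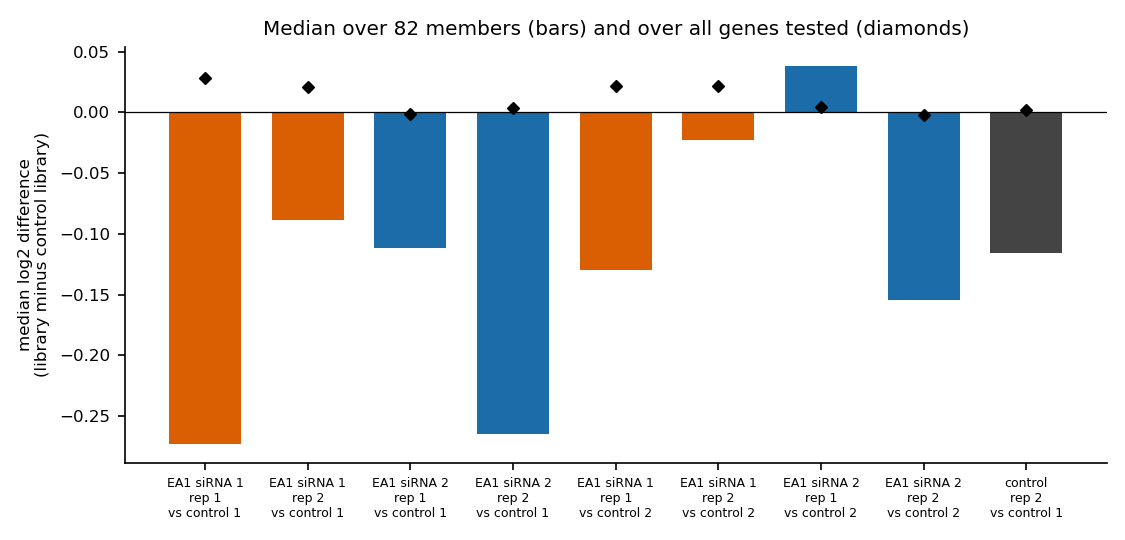
Median log2 difference over the 82 members (bars, vertical axis) in each knockdown library against each control library, and in the second against the first control library (dark bar at the right); diamonds give the median over all genes tested. The dark bar at -0.12 is as long as several knockdown bars, and 1 bar, at 0.04, points upward.

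By position, all 4 knockdown libraries lay below both control libraries for 21 members (25.6%) and above both for 4 (4.88%). Over all genes tested these shares were 27.3% and 28.1%. The 4 members above control in every knockdown library were RPS28, RPL34, RPL15 and RPS4X, of which the first pair passed the test.

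Among the 60S proteins, RPL4, RPL5 and RPL14 were the members with lower mRNA whose call in the averaged comparison held under all 17 alternative analyses. RPL4 (ENSG00000174444, chr15:66498015-66524532 of hg38), an early-binding protein with a long extension near the polypeptide exit tunnel, was at 596 and 579.6 CPM in control, 340.5 and 362 under EA1 siRNA 1, and 446 and 443 under EA1 siRNA 2. All 4 knockdown libraries were far below control. The log2FC was -0.74 (SE 0.10, adjusted p = 0.000111) under EA1 siRNA 1 and -0.40 (SE 0.10, adjusted p = 0.00725) under EA1 siRNA 2, by edgeR. Without the first control library the latter was -0.38 with an adjusted p of 0.0606. Its introns host snoRNAs and its exons overlap ZWILCH on the opposite strand.

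RPL14 (ENSG00000188846, chr3:40457292-40468587) was at 257 and 240.0 CPM in control, 181 and 201 under EA1 siRNA 1, and 179 and 175 under EA1 siRNA 2. The groups did not overlap, and both siRNAs gave a similar level. The averaged log2FC was -0.43 (SE 0.09, adjusted p = 0.00159, edgeR), a fall of 25.9%.

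RPL5 (ENSG00000122406, chr1:92832013-92841924), which carries 5S rRNA into the large subunit together with RPL11, differed between the siRNAs. It was at 258 and 245 CPM in control, 152 and 136 under EA1 siRNA 1, and 247 and 209 under EA1 siRNA 2. Both libraries of EA1 siRNA 1 were below all the others, and under EA1 siRNA 2 one library overlapped control. The log2FC was -0.80 (SE 0.11, adjusted p = 0.000178) under EA1 siRNA 1 and -0.14 (SE 0.11, adjusted p = 0.353) under EA1 siRNA 2, by edgeR. The difference between the siRNAs was -0.66 (SE 0.11, adjusted p = 0.0141, edgeR). In this fit RPL5 was the 1 member of 82 (1.22%) called in that comparison, beside 2.24% of all genes. Another member was called beside it with a replicate block and with DESeq2 over 3 conditions. With either library of EA1 siRNA 1 left out, the difference of RPL5 was no longer called. RPL11 was at 93.1 and 85.6 CPM in control and at 69.8 to 89.7 CPM after knockdown, with an averaged log2FC of -0.19 (SE 0.11, adjusted p = 0.189). DIPK1A overlaps exons of RPL5 on the opposite strand, and the strand setting of the counting is not given in the sources used here.

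RPL3, a conserved protein that reaches towards the peptidyl transferase center, was at 589 and 567 CPM in control, 432 and 485 under EA1 siRNA 1, and 435 and 445 under EA1 siRNA 2. Every knockdown library was below control. Its averaged log2FC was -0.37 (SE 0.09, adjusted p = 0.00546), and without the first control library the adjusted p was 0.0664. RPL17 (ENSG00000265681, chr18:49488453-49492508), which forms part of the wall of the exit tunnel, was at 56.7 and 50.9 CPM in control, 34.1 and 38.5 under EA1 siRNA 1, and 45.6 and 40.7 under EA1 siRNA 2. The groups were separate, and the averaged log2FC was -0.44 (SE 0.11, adjusted p = 0.00736, or 0.0924 without the first control library). Its exons are shared with the readthrough gene RPL17-C18orf32, so the assignment of its reads is uncertain.

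The largest fitted decreases in the averaged comparison belonged to members whose control libraries disagreed. RPL39L (ENSG00000163923, chr3:187120948-187180908), a paralog of RPL39 best known from testis, had 102 and 50 counts in control, or 15.3 and 6.43 CPM, and 4.41, 4.12, 4.45 and 7.02 CPM after knockdown. One library of EA1 siRNA 2 was above the second control library. The averaged log2FC was -1.11 (SE 0.34, adjusted p = 0.0204), and without the first control library it was -0.37 with an adjusted p of 0.497. RPL36A (ENSG00000241343, chrX:101390824-101396155), whose product lines the exit site for tRNA, was at 67.4 and 42.3 CPM in control and at 31.9 to 43.4 CPM after knockdown. The groups overlapped here too, and the averaged log2FC of -0.59 (SE 0.18, adjusted p = 0.0205) became -0.22 with an adjusted p of 0.417 without the first control library. Without the first library of EA1 siRNA 1 the adjusted p was 0.0675. RPL36A shares exons with the readthrough gene RPL36A-HNRNPH2.

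**Figure D3:**
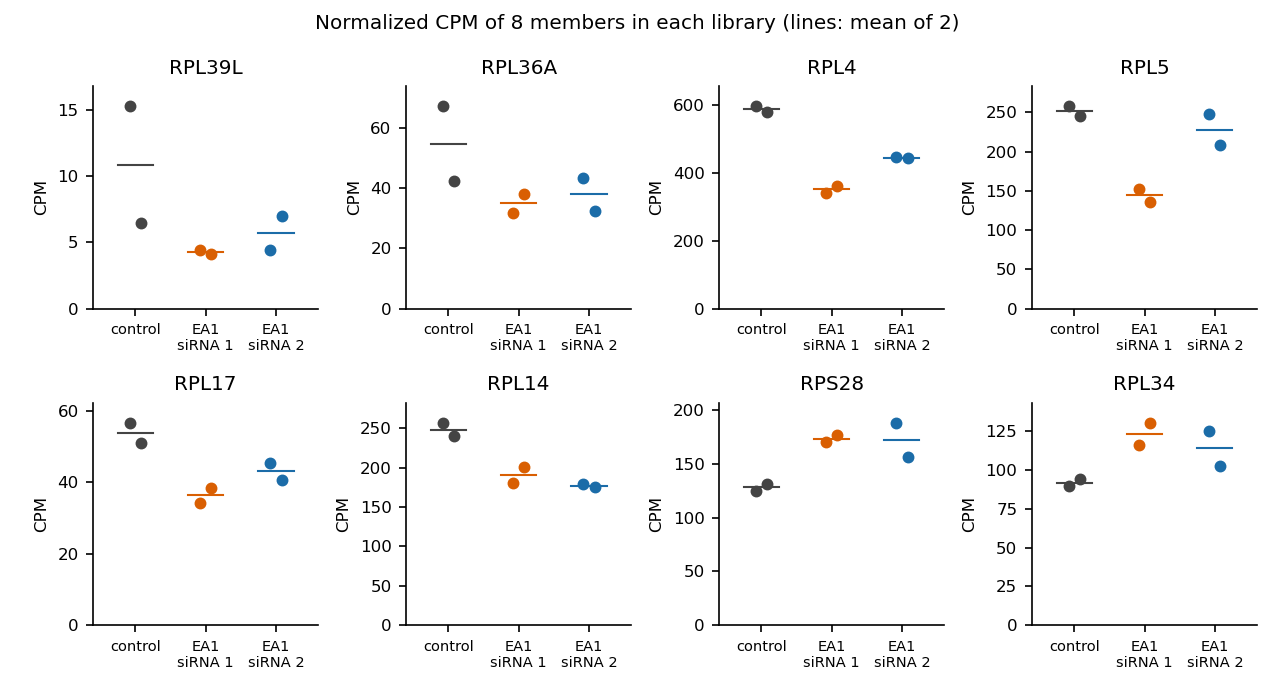
Normalized CPM (vertical axes, from 0) of the 6 lower and 2 higher members with the largest called change in the averaged comparison, as points for each of the 2 libraries of control (dark), EA1 siRNA 1 (orange) and EA1 siRNA 2 (blue), with a line at the mean. The control points of RPL39L (15.3 and 6.43 CPM) and RPL36A (67.4 and 42.3 CPM) lie far apart, those of RPL4 (596 and 579.6 CPM) close together.

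The stalk of the large subunit, which recruits the translational GTPases, is built from RPLP0 and dimers of RPLP1 and RPLP2. RPLP0 was at 636 and 606 CPM in control, 493 and 549 under EA1 siRNA 1, and 486 and 457 under EA1 siRNA 2, below control in all 4 libraries, and fell on average (log2FC -0.33, SE 0.09, adjusted p = 0.0114 by edgeR, or 0.113 without the first control library). With the GC and length correction RPLP0 was not called either, without or with a replicate block (adjusted p = 0.0832 and 0.0665). RPLP1 was at 274 and 239 CPM in control and at 208 to 279.7 CPM after knockdown. RPLP2 was at 258 and 226 CPM in control and at 240.1 to 257 CPM after knockdown. Neither of these passed the test, with averaged log2FC of -0.15 (SE 0.12) and 0.04 (SE 0.09).

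Among the 40S proteins, RPS16, a protein of the small subunit head, was at 235 and 177 CPM in control, 166 and 160.2 under EA1 siRNA 1, and 159 and 143 under EA1 siRNA 2. The groups were separate although the control libraries differed, and the averaged log2FC was -0.39 (SE 0.11, adjusted p = 0.0147, or 0.330 without the first control library). The GC and length correction without a replicate block also ended this call. RPS24 was at 419 and 369 CPM in control and at 274 to 354 CPM after knockdown, with an averaged log2FC of -0.38 (SE 0.11, adjusted p = 0.0152, or 0.175 without the first control library). RPSA, also known as the laminin receptor precursor, was at 530.3 and 532 CPM in control and at 384 to 478 CPM after knockdown. Its control libraries were nearly equal, all 4 knockdown libraries lay below them, and the averaged log2FC was -0.32 (SE 0.09, adjusted p = 0.0153). RPSA was not called without either control library or without the first library of EA1 siRNA 1, with adjusted p up to 0.0917.

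RPS6, the substrate of the S6 kinases, was at 226 and 213 CPM in control, 160.0 and 175 under EA1 siRNA 1, and 189 and 199 under EA1 siRNA 2. It fell on average (log2FC -0.28, SE 0.09, adjusted p = 0.0178) and was below control in every knockdown library. RPS6 was not called without the first control library, without the first library of EA1 siRNA 1 or with a GC and length correction, with adjusted p up to 0.164. RPS19, the gene most often mutated in Diamond-Blackfan anemia, was at 110.3 and 88.2 CPM in control and at 91.4 to 105 CPM after knockdown, with a log2FC of -0.05 (SE 0.11). RPS27A, made as a fusion with ubiquitin, was at 147 and 136 CPM in control and at 142 to 179.8 CPM after knockdown, with a log2FC of 0.19 (SE 0.11). Neither RPS19 nor RPS27A was called.

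Against the direction of most members, RPS28 and RPL34 rose. RPS28 (ENSG00000233927, chr19:8321158-8323340), a small protein at the mRNA exit channel, was at 125 and 131 CPM in control, 169.8 and 177 under EA1 siRNA 1, and 188 and 156 under EA1 siRNA 2. All knockdown libraries were above control, and the averaged increase was 34.9% (log2FC 0.43, SE 0.10, adjusted p = 0.0037 by edgeR). NDUFA7 and KANK3 overlap its exons on the opposite strand. RPL34 (ENSG00000109475, chr4:108620569-108630412) was at 89.7 and 94.0 CPM in control, 116 and 131 under EA1 siRNA 1, and 125 and 102 under EA1 siRNA 2, a log2FC of 0.37 (SE 0.10, adjusted p = 0.0141). Both stayed at a similar size without the first control library (0.40 and 0.33), with adjusted p of 0.0516 and 0.113. RPL34 was also not called without the second control library or the second library of EA1 siRNA 1.

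RPS4X, the X-linked small subunit protein, was at 517 and 555 CPM in control, 570.0 and 651 under EA1 siRNA 1, and 684 and 603 under EA1 siRNA 2. Its averaged log2FC of 0.22 (SE 0.10, adjusted p = 0.0895) did not pass the test, although every knockdown library was above control. RPL15 had the same averaged log2FC of 0.22 (SE 0.09, adjusted p = 0.069) and was also above control throughout.

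The 5 paralogs arose as copies of other ribosomal protein genes, and several are known for expression in particular tissues. RPL7L1, a nucleolar protein, was at 149 and 142 CPM in control and at 109 to 125 CPM after knockdown and was lower with each siRNA, whereas its parent RPL7 was at 145 and 144 CPM in control and at 128 to 151 CPM after knockdown (log2FC -0.30, SE 0.09, adjusted p = 0.0182, and -0.07, SE 0.10, adjusted p = 0.62). RPS27L was at 87.7 and 68.1 CPM in control and at 56.6 to 73.9 CPM after knockdown, with a log2FC of -0.35 (SE 0.13, adjusted p = 0.0467, or up to 0.488 under the 6 of 17 alternatives that lost the call), and its parent RPS27 had 0.11 (SE 0.15, adjusted p = 0.576). RPL39, the parent of RPL39L, had -0.14 (SE 0.13, adjusted p = 0.388). The averaged call of RPL7L1 was lost without the first control library (adjusted p = 0.143), and its calls under EA1 siRNA 1 and EA1 siRNA 2 were lost in 9 and 6 of 18 alternatives, DESeq2 among them. The difference between paralog and parent was not tested.

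RPL22L1 was at 32.6 and 34.8 CPM in control, 23.6 and 27.0 under EA1 siRNA 1, and 34.0 and 33.7 under EA1 siRNA 2. It was called under EA1 siRNA 1 (log2FC -0.42, SE 0.15, adjusted p = 0.0411), a call that 9 of 18 alternatives lost, and the difference between the siRNAs was not called (-0.42, SE 0.15, adjusted p = 0.177). Its parent RPL22 was at 73.5 and 66.0 CPM in control and at 48.1 to 68.7 CPM after knockdown (averaged log2FC -0.29, SE 0.13, adjusted p = 0.0806). RPL26L1 was at 25.7 and 22.1 CPM in control and at 22.6 to 28.4 CPM after knockdown, and RPL26 at 71.1 and 56.2 CPM and at 51.8 to 61.6 CPM. RPL26L1 and RPL26 were not called (0.08, SE 0.14, and -0.16, SE 0.12), and neither was RPL10 (-0.13, SE 0.09).

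Per length of all annotated exons, RPS2 had the highest level in control, 599 ± 26.5 RPKM (CPM divided by the length in kilobases; SD, n = 2), followed by RPS12 with 287 ± 60.4 and RPL8 with 279 ± 18.4, and these last did not differ beyond their spread. The lowest were RPL39L with 10.5 ± 6.05, RPS27L with 8.83 ± 1.57 and RPS29 with 5.47 ± 0.995. The order depends on the length used: per length of the canonical transcript RPS2 stayed first and RPS27L and RPL39L stayed lowest, while RPS29 had 183 RPKM and ranked 44th of 82. By that length RPS12 ranked 20th and RPL8 6th, and RPS24 and RPL30 ranked 2nd and 3rd. None of RPS2, RPS12, RPL8 and RPS29 was called. RPS2 was at 1386 and 1475 CPM in control and at 1175 to 1443 CPM after knockdown, with an averaged log2FC of -0.18 (SE 0.10, adjusted p = 0.183). Pseudogenes of 53 members had rows of their own, 122 in all, with the largest share for RPS2 (13.4% of the member's counts), followed by RPL23A (11.9%) and RPS10 (7.9%).

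Among the genes that build and serve the ribosome the share called lower was larger than among the ribosomal protein genes, a description with no test of the difference. In the averaged comparison the median log2FC of 75 ribosome assembly and rRNA processing genes was -0.56, and 15 were not called. The other 60 fell (80%, beside 22.1% of all genes). Among them NOP56 and NOP58, core proteins of the box C/D snoRNPs that guide rRNA methylation, had log2FC of -1.63 (SE 0.09) and -1.32 (SE 0.12). BRIX1 and NOL6, which act in the maturation of the large and of the small subunit, had -1.37 (SE 0.11) and -1.37 (SE 0.13). NCL, nucleolin, had -0.81 (SE 0.09). Without the first control library fewer of the 75 were called, as were fewer ribosomal protein genes and fewer of all genes.

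Of 16 genes of ribosomal RNA transcription 10 fell (62.5%, beside 22.1% of all genes), with a median of -0.61. Those that fell included POLR1B, the second-largest RNA polymerase I subunit (log2FC -1.09, SE 0.10), and RRN3, the factor that brings the polymerase to its promoter (-0.73, SE 0.09). UBTF, which binds the rDNA promoter, had -0.09 (SE 0.11) and POLR1A 0.01 (SE 0.08), and neither was called. Of 32 further initiation, elongation and release factors 21 fell (65.6%, beside the same 22.1%), with a median of -0.42. Among the 21 were EIF4A1 (-0.90, SE 0.20), EIF4E (-0.63, SE 0.09) and ABCE1, the ribosome recycling factor (-0.77, SE 0.09). Without the first control library fewer genes of both lists were called, as were fewer of all genes.

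**Figure D4:**
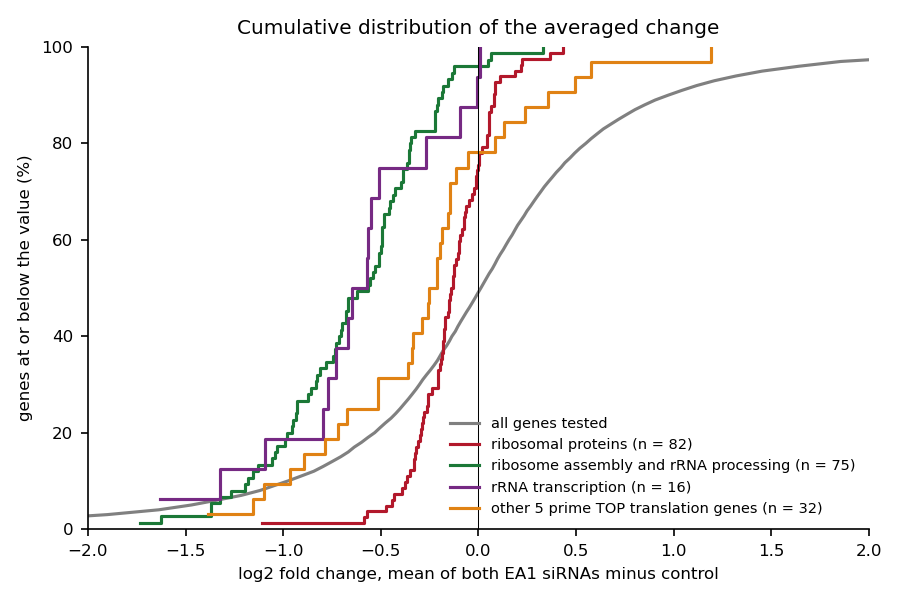
Percentage of genes (vertical axis) at or below each log2 fold change (horizontal axis, mean of both EA1 siRNAs minus control) for the ribosomal protein genes (red), ribosome assembly genes (green), rRNA transcription genes (purple), other TOP genes (orange) and all genes tested (grey). The red curve is steep and close to 0, with a median of -0.14, whereas the green and purple curves have medians of -0.56 and -0.61 and the grey curve is broad around 0.01.

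Other genes whose mRNAs begin with a TOP tract were mixed. Of 32 tested, 14 fell (43.8%, beside 22.1% of all genes) and 4 rose (12.5%, beside 21.5%), with a median log2FC of -0.23. Those that fell included translation factors such as EEF1D (-0.33, SE 0.08) and EIF3A (-0.51, SE 0.09), NPM1, a nucleolar chaperone (-0.67, SE 0.09), and 6 noncoding hosts of snoRNAs, for example SNHG1 (-1.38, SE 0.11) and GAS5 (-0.96, SE 0.12). The 4 that rose were VIM (1.19, SE 0.11), COX7C (0.58, SE 0.12), SLC25A6 (0.49, SE 0.10) and TPT1 (0.36, SE 0.09), which encode an intermediate filament, a respiratory subunit, a mitochondrial nucleotide carrier and a small growth-related protein. EEF1A1 (-0.05, SE 0.11) and EEF2 (-0.14, SE 0.10), the main elongation factors, were not called.

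Among 27 tested genes of mTORC1 signaling and TOP mRNA control, 6 fell (22.2%, beside 22.1% of all genes) and 8 rose (29.6%, beside 21.5%), with a median of 0.02. RHEB, the activator of mTORC1, fell (log2FC -1.005, SE 0.08), as did RPS6KB1, an S6 kinase (-0.35, SE 0.10), and EIF4EBP1, a translational repressor that mTORC1 inactivates (-0.51, SE 0.10). Those that rose included activators of mTORC1 as well as inhibitors: its subunit RPTOR (0.31, SE 0.08) and the Rag GTPases RRAGA (0.64, SE 0.19), RRAGC (0.30, SE 0.11) and RRAGD (0.43, SE 0.11) on one side, and DDIT4 (1.30, SE 0.14) and the TSC complex genes TSC1 (0.37, SE 0.09), TSC2 (0.32, SE 0.09) and TBC1D7 (1.48, SE 0.17) on the other. MTOR (0.17, SE 0.09) and LARP1 (-0.04, SE 0.08) were not called. MYC, a broad activator of ribosome genes, had an averaged log2FC of -0.39 (SE 0.13, adjusted p = 0.0244). Without the first or without the second control library 8 of these genes were called instead of 14.

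**Figure D5:**
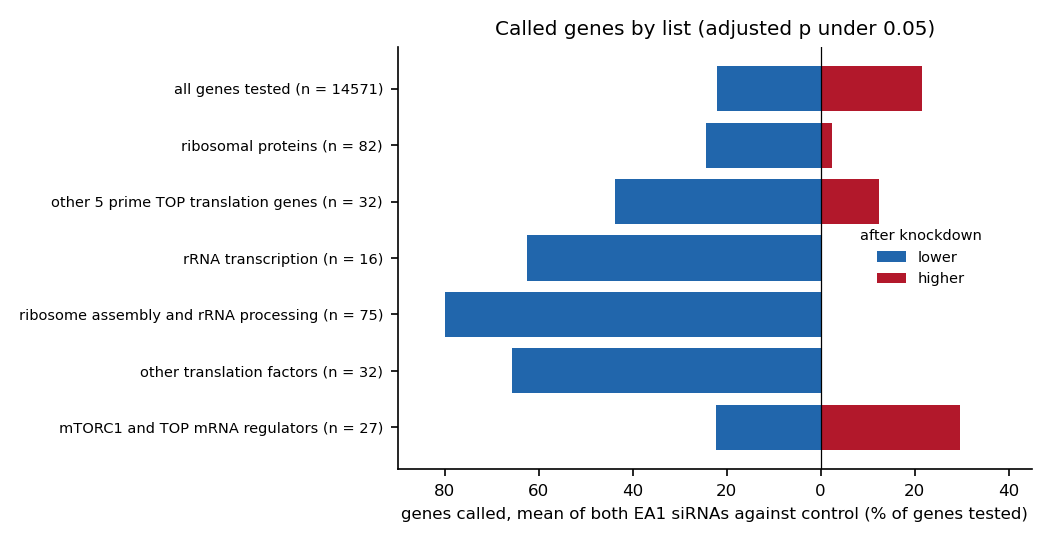
Share of genes tested (horizontal axis, in %) called lower (blue, to the left) and higher (red, to the right) for the mean of both EA1 siRNAs against control, for all genes, the ribosomal protein genes and 5 lists of genes of ribosome production and its control. The ribosomal protein bar on the left (24.4%) is close to that of all genes (22.1%) and shorter than that of the assembly genes (80%), and on the right it ends at 2.44%, against 21.5% for all genes.

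Of the ribosomal protein genes outside the rule, RPL36AL was at 45.1 and 29.1 CPM in control, 21.8 and 23.5 under EA1 siRNA 1, and 34.4 and 26.1 under EA1 siRNA 2. One library of EA1 siRNA 2 was above the second control library. RPL36AL was called lower in the averaged comparison (log2FC -0.50, SE 0.18, adjusted p = 0.0432) and not under EA1 siRNA 2 alone (-0.29, SE 0.21, adjusted p = 0.309). FAU, which encodes RPS30, had -0.26 (SE 0.12, adjusted p = 0.101) and was not called.

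The log2FC of the members followed their length or base composition little. Over the 82 genes, Pearson's r of the averaged log2FC was 0.10 with the GC content of the canonical transcript, -0.07 with the log2 length of all exons, 0.285 with the level and -0.05 with the number of pseudogene rows. Spearman's rho with the level was 0.0827. These are descriptions over genes that share the same 6 libraries, and genes are not independent replicates.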

How the data were processed

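Counts of 6 SU-CCS-1 libraries were used, grouped by the sample labels. The authors prepared stranded mRNA libraries, aligned reads to hg38 with BWA-MEM (no splice model), counted them per gene with featureCounts 1.6.3 and deposited raw counts without normalization. The annotation and strand setting are not given in the sources used here. The methods name 1 EA1 siRNA, the labels 2. Coordinates, exon lengths and overlaps came from GENCODE 44, in which 18063 of 18118 identifiers were found.

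From the deposited counts, edgeR 4.0.16 (R 4.3.3) kept 14571 genes (filterByExpr, minimum count 10, minimum total 15), normalized them by TMM and applied the quasi-likelihood test over 3 conditions, with Benjamini-Hochberg adjustment over all genes tested. Standard errors came from the F statistic, and CPM are normalized. Alternatives were other scalings and filters, DESeq2 1.42.0, a replicate block, a GC and length correction, summed pseudogenes and each library left out. The fit was tested on simulated counts with the same spread for all genes and with changes larger than those of most members. Recovery of changes as small as most members showed was not tested. Named members were paralogs and their parents, the stalk, RPL5 and RPL11, RPSA, RPS6, RPS19, RPS27A, RPS4X, the 6 called members with the largest averaged change in each direction, those called between siRNAs, and the 3 highest and lowest per length. RPS16, RPS24 and RPL15 were added after their values were seen, as were the genes named from the lists. One further list and 1 gene outside the rule are not reported here. Members and lists were chosen with earlier results of these data known.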

Additional observations from a re-analysis of the deposited data

Results flagged for a closer look

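RPL5 encodes a 5S rRNA-binding protein of the large subunit. In the reported edgeR fit it was the member whose change differed between the EA1 siRNAs by a test of the difference itself. Its log2FC of EA1 siRNA 1 minus EA1 siRNA 2 was -0.66 (adjusted p = 0.0141 from the edgeR fit), with 152 and 136 CPM against 247 and 209 CPM, so that both libraries of EA1 siRNA 1 were lower than both of EA1 siRNA 2. The call held in 16 of 18 alternatives. Without the first library of EA1 siRNA 1 the difference was -0.74 with an adjusted p of 0.064, and without the second the adjusted p was 0.211. Another member was called beside RPL5 with a replicate block and with DESeq2 over 3 conditions. Both siRNAs lowered ATF1 to a similar level (20.3 and 21.2 CPM against 21.7 and 22.3 CPM). The sequences of the siRNAs were not used here, and the cause of the difference was not tested.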

How the results depend on the processing

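The numbers of members called depended most on single libraries. With each library left out in turn, 3 to 28 members were called with EA1 siRNA 1 (16 as reported), 1 to 19 with EA1 siRNA 2 (10), 3 to 32 averaged over both (22) and 0 to 1 between the siRNAs (1). Over the same fits 26.4% to 41.9%, 24.5% to 34.6%, 29.9% to 44% and 0.212% to 5.11% of all genes were called. The lowest member counts came without the first control library, and for the difference between the siRNAs without either library of EA1 siRNA 1. The lowest shares of all genes came from other fits. With a lone library in an arm its spread was taken from the other groups. With EA1 siRNA 2, 16 members were called on library totals alone and 5 with the GC and length correction, which gave 13 in the averaged comparison. Over all genes tested, deviations of libraries with the same replicate number correlated at 0.13, 0.199 and 0.144 between the 3 pairs of groups. These pairs are control with EA1 siRNA 1, control with EA1 siRNA 2, and EA1 siRNA 1 with EA1 siRNA 2. Over the members alone the values were 0.292, 0.204 and 0.0749, in the same order. The labels tie the replicate numbers to no shared batch or day. With the replicate number as a block 18 members were called with EA1 siRNA 2, 25 averaged and 2 between the siRNAs, where DESeq2 over 3 conditions also called 2. For library totals, the GC and length correction, the block and DESeq2, the shares of all genes called are not given here. Whether these counts moved more than those of all genes was not tested. DESeq2 on only the 4 libraries compared gave no averaged contrast. The members' medians kept their sign against control in every alternative. With pseudogene rows added, the members' share was 1.95% in the second control library and 1.70% in the second library of EA1 siRNA 2.

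Members near 0 that were not called changed sign under some settings; the cause was not tested. RPL7 was at 0.0244 with the GC and length correction and 0.0238 with the block added. RPS19 was at 0.0317 and 0.0364 under these corrections. RPS12 was at 0.0978 and 0.111 under them, 0.0279 with upper-quartile factors and 0.00119 with pseudogenes summed. With libraries left out, the ranges were -0.24 to 0.22 for RPS12, -0.24 to 0.12 for RPS19, -0.35 to 0.0199 for RPL26, -0.32 to 0.0193 for RPL39, -0.38 to 0.026 for RPS29, -0.0576 to 0.19 for RPL26L1, -0.13 to 0.35 for RPS27, -0.0843 to 0.14 for RPLP2 and -0.0429 to 0.13 for RPL8. Named results kept their direction and side of the threshold in 818 cases, lost the call in 90, gained one in 9 and changed sign in 23.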
